A study of Homo sapiens with 3 samples.

Results

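The mRNAs of 8 surface or secreted molecules by which tumor cells restrain immune cells were examined in osimertinib-resistant lung cancer cells: 7 ligands of immune receptors (CD274, PDCD1LG2, CD276, VTCN1, CD47, LGALS9 and PVR) and NT5E, the gene of the enzyme CD73. They were chosen by symbol, and every probe that carried one of these names was taken, 17 of the 58200 probes and 8 of the 43316 gene names on the array. H1975 is a non-small cell lung cancer cell line with mutated EGFR that is sensitive to osimertinib, an EGFR inhibitor. OR1 and OR2 are its osimertinib-resistant derivatives, raised independently of each other by exposing it for 4 months to osimertinib in steps that ended at 2 μmol/L. RNA of each line was hybridized to 1 single-colour array, so that no ratio has a replicate and no p-value is given for it. Each resistant line was compared with the same H1975 array, so the OR1 and OR2 ratios are not independent of each other.

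Immune checkpoints are receptor and ligand pairs that dampen lymphocytes and macrophages, and tumor cells carry many of the ligands. PD-L1 (CD274) and PD-L2 (PDCD1LG2) engage PD-1 on T cells, and B7-H3 (CD276) and B7-H4 (VTCN1) are their B7 family relatives. CD47 binds SIRPα on macrophages and inhibits phagocytosis, galectin-9 (LGALS9) binds TIM-3, CD155 (PVR) binds TIGIT, CD96 and CD226, and CD73 (NT5E) is the ectoenzyme that makes adenosine from AMP.

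In both resistant lines NT5E and VTCN1 mRNA fell below the ratio of 0.5 to H1975, CD47 did so in OR1 and CD274 in OR2, and no member reached a ratio of 2. CD276 stayed between these limits in both lines, as did PVR and LGALS9 by the brightest probe of each. Another probe of PVR and another of LGALS9 were below 0.5 in both lines. PDCD1LG2 was well above background on none of the arrays. Intensity here is the background-corrected brightness of a spot, printed as the scanner software gave it. A ratio is the quotient of 2 arrays after each was scaled on its 75th percentile, equal to 157, 138 and 162 for H1975, OR1 and OR2. A gene was represented by its brightest probe and called down-regulated at a ratio of at most 0.5 and up-regulated at a ratio of at least 2. Where a probe was not well above background on 1 side, that side was set to the lowest intensity called well above background on its array (12.6, 11.4 and 12.6 for H1975, OR1 and OR2) or to the probe's own intensity if higher, and the ratio is a bound. The technical SD of a log2 ratio, from the scanner software's error estimates, had a median of 0.21 over the member probes in each line and does not cover variation between cultures.

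Of the 8 members, 7 were called well above background by 1 array or more and 6 by all 3. Of these 7 members, 3 were down-regulated in OR1, against 9.58% of all genes with a ratio. The number in OR2 was also 3, against 8.70% of all genes. In both lines it was 2, against 6.71%. Up-regulation was found in 0 members in either line, against 9.17% of all genes in OR1 and 7.72% in OR2. Ratios were below 1 in both lines for 6 of the 7 members, against 41.8% of genes. The median log2 ratio of the members was -0.96 in OR1 and -0.89 in OR2, where all genes had medians of 0.04 and -0.06. These are descriptions of a chosen list of 8 genes and not a test of it.

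Probes of NT5E, CD274, CD47 and PVR are shown here, to make plain what was hybridized. They are the 60-base probes in the body of each transcript, as the scanner files give them, 5′ to 3′, with no base marked in capitals. For CD47 this is the only probe, while for NT5E, CD274 and PVR it is not the brightest, and the calls of these genes rest on brighter probes nearer the 3′ end, given by position.
NT5E: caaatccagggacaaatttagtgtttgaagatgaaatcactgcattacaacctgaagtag
CD274: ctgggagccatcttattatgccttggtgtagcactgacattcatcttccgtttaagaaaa
CD47: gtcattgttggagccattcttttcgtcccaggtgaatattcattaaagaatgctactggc
PVR: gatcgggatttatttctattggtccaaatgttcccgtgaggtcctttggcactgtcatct
On hg19, the build of the files, they lie at chr6:86176992-86181005, chr9:5465546-5465605, chr3:107778363-107779622 and chr19:45162098-45162157. The NT5E and CD47 stretches are longer than the probe and so cross an intron, as those of 5 of the 17 member probes do. Probes are named below by the base of the transcript at which they begin.

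**Figure D1:**
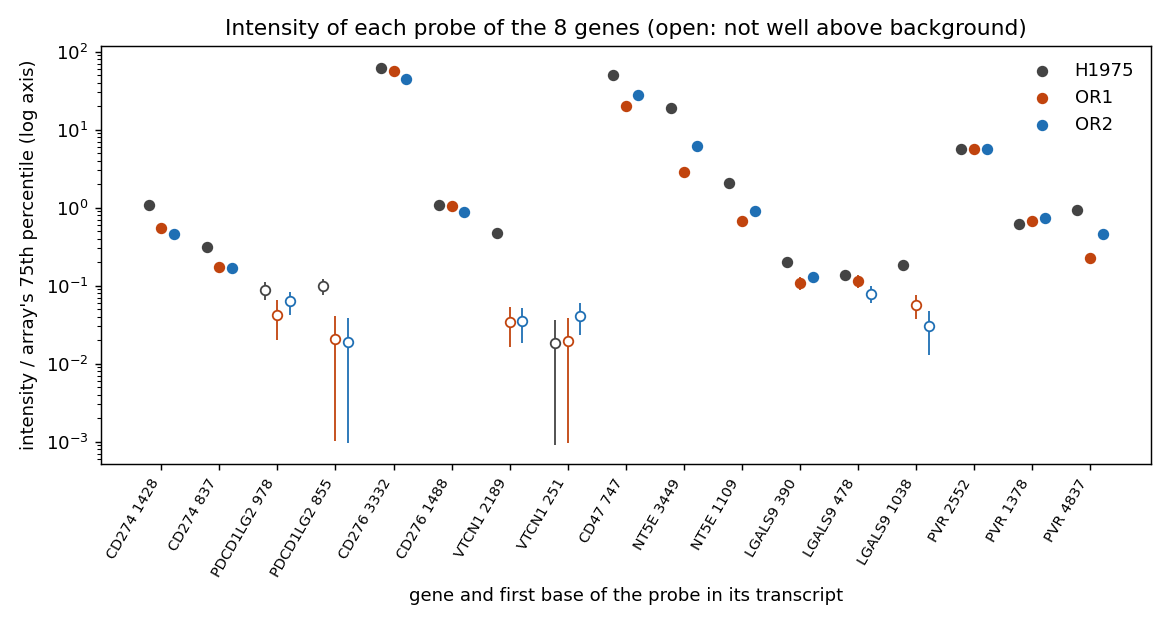
Scaled intensity (intensity divided by the array's 75th percentile, log axis) of the 17 member probes in H1975, OR1 and OR2, 1 array each, with the scanner software's error as bars, whose lower ends are shortened where the error exceeds the value, and open circles for probes not well above background. The NT5E and CD47 probes lay highest in H1975, lowest in OR1 and between them in OR2, and both PDCD1LG2 probes were not well above background on any array.

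NT5E was measured by a probe from base 3449 (chr6:86204891-86204950) whose intensity was 2991, 392 and 988 in H1975, OR1 and OR2. The 3 lines were apart, with H1975 highest and OR1 lowest. The ratio to H1975 was 0.150 in OR1, or 6.68-fold lower, and 0.322 in OR2, or 3.11-fold lower, each with a technical SD (log2) of 0.20. The second probe, from base 1109, read 325, 94.3 and 147, with ratios of 0.331 and 0.440. Both probes of NT5E were thus past the ratio in both lines and in the same order of lines, while the size in OR1 differed between them by 1.15 on the log2 scale. A share of 1.33% of all genes had a lower ratio than NT5E in OR1, and 3.45% in OR2. Set against each other without the H1975 array, OR1 had 0.465 times the NT5E level of OR2 by the brighter probe and 0.754 times by the other. NT5E was the 1 member that was apart between the resistant lines, against 5.37% of all genes, and the call rests on the brighter probe.

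VTCN1 was read by the probe from base 2189 (chr1:117686598-117686657) at 75.4 in H1975, 4.76 in OR1, 5.73 in OR2, the latter 2 not well above background. B7-H4 mRNA was thus measurable in the parental cells and not in either resistant line. The level was at least 5.80-fold lower in OR1 and at least 6.14-fold lower in OR2, ratios of at most 0.173 and at most 0.163. Under normexp background correction, which keeps a positive offset on dim spots, the OR1 ratio was 0.548 and no longer past the ratio, and that in OR2 was 0.497. The second VTCN1 probe, from base 251 of a non-coding transcript of the gene, was at background on every array, at 2.87, 2.65 and 6.69. The difference between OR1 and OR2 has no ratio.

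CD274 was read by the probe from base 1428 (chr9:5468310-5468369) at 168, 75.8 and 74.4 in H1975, OR1 and OR2. Its other probe, from base 837, read 48.5, 23.6 and 27.1. On both probes H1975 was the highest of the 3 lines, and OR1 and OR2 lay close to each other. The brighter probe put OR1 at a ratio of 0.514 and OR2 at 0.430 (technical SD 0.21 and 0.22, log2), and the other 0.554 and 0.543 (0.27 in each). PD-L1 mRNA was therefore near the ratio of 0.5 in both lines and past it in OR2 by 1 of its 2 probes. The OR1 value was past it with median scaling, without scaling and with spike-in scaling, and the OR2 value was not with normexp correction, at 0.579. OR1 over OR2 was 1.19 for CD274, a difference of 0.25 on the log2 scale against a technical SD of 0.22. PDCD1LG2, which lies beside CD274 on chromosome 9, had intensities of 13.9, 5.86 and 10.2 in H1975, OR1 and OR2 by the probe from base 978 (chr9:5557692-5557751), and of 15.6, 2.85 and 3.10 by the probe from base 855. Since no reading of PD-L2 was called well above background, no ratio is given for it.

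CD276 was bright in all 3 lines, at 9662, 7697 and 7143 in H1975, OR1 and OR2 by the probe from base 3332 (chr15:74006791-74006850). For CD276 this gave 0.909 in OR1 and 0.719 in OR2 (technical SD 0.20, log2). A second probe, from base 1488 (chr15:73996699-73996758), read 172, 145 and 140, with ratios of 0.964 and 0.795. Both probes of B7-H3 agreed within their technical SD, and the OR1 ratio was within 1 technical SD of H1975.

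CD47 had 1 probe, from base 747, which read 7977, 2759 and 4434 in H1975, OR1 and OR2. The order of the lines was that of NT5E, with H1975 highest and OR1 lowest. The ratio was 0.394 in OR1, past 0.5, and 0.541 in OR2, just short of it, with a technical SD (log2) of 0.20 in each. OR1 over OR2 was 0.729 for CD47, short of the ratio that would set the lines apart. Over the alternative scalings and background correction, the CD47 ratio ran from 0.260 to 0.413 in OR1 and from 0.534 to 0.604 in OR2, and neither call at 0.5 changed. The background filters and the probe rule could not change it, since its 1 probe was well above background on all 3 arrays.

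LGALS9 was dim. The probe from base 390 (chr17:25967739-25967798) read 31.6, 15.0 and 20.9 in H1975, OR1 and OR2, ratios of 0.542 and 0.644 with technical SDs (log2) of 0.32 and 0.29. These were 0.882 and 0.845 with normexp correction, while unscaled arrays put OR1 at 0.475 and spike-in scaling put it at 0.357, both past 0.5. That from base 478 read 21.4, 15.7 and 12.8, the last not well above background, with 0.839 in OR1 and at most 0.582 in OR2. The one from base 1038 read 28.8 in H1975 and was not well above background in OR1 and OR2, at 7.78 and 4.94, which gave at most 0.451 and at most 0.426. All 3 probes had ratios below 1 in both lines, and 1 of the 3 was past 0.5. A brighter probe that the files name LGALS9C (chr17:18398176-18398235) also lists transcripts of LGALS9. It read 710, 168 and 169 in H1975, OR1 and OR2, with ratios of 0.270 and 0.231 and a technical SD of 0.21. LGALS9 and its near-identical copies on chromosome 17 cannot be told apart by this probe, and it is not counted among the 17.

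PVR differed between its probes. By the brightest, from base 2552 (chr19:45166078-45166137), PVR read 892, 784 and 921 in H1975, OR1 and OR2, ratios of 1.002 and 1.005 with a technical SD (log2) of 0.20. The one from base 1378 read 96.2, 92.0 and 118, ratios of 1.09 and 1.19. By these 2 probes neither resistant line was below H1975. A probe farther toward the 3′ end, from base 4837 (chr19:45168363-45168422), read 145, 31.5 and 73.8, ratios of 0.248 and 0.497. All 3 probes list the same RefSeq transcript NM_006505, and their log2 ratios spanned 2.14 in OR1 and 1.26 in OR2, against a largest technical SD of 0.23. The level of CD155 mRNA in the resistant lines thus depended on the stretch of transcript that was read. In RNA of a whole culture, fewer cells with a transcript and less of it per cell cannot be told apart, for PVR as for the other members.

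**Figure D2:**
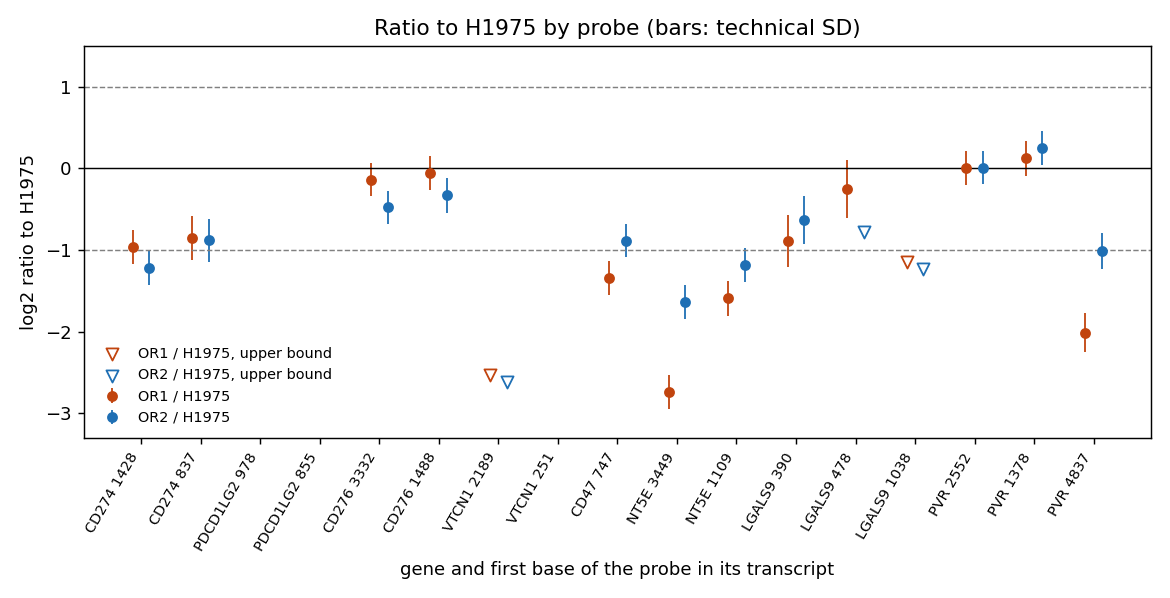
Log2 ratio to H1975 of each member probe in OR1 and OR2, 1 array each, with the technical SD as bars, open triangles for upper bounds, and dashed lines at the ratios of 2 and 0.5. The 2 NT5E probes lay below the lower line in both resistant lines, and the PVR probes lay near 0 except the one from base 4837, at ratios of 0.248 and 0.497.

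By probe, 14 of the 17 had a ratio. Of these, 6 were down-regulated in OR1, against 9.50% of all probes with a ratio. In OR2 the number was again 6, against 8.46%, and 5 were so in both lines, against 6.52%. Ratios were below 1 in both lines for 12 of the 14 probes, against 41.1% of probes, and the other 2 were those of PVR from bases 2552 and 1378. Probes of a gene share its mRNA and are not independent of each other.

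**Figure D3:**
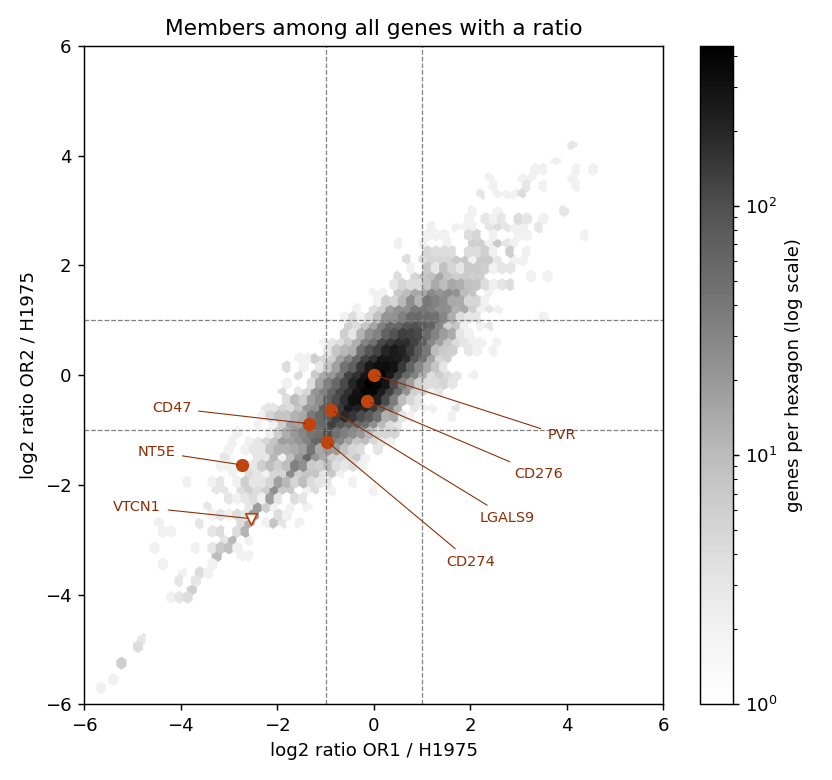
Log2 ratio of OR1 to H1975 (x axis) and of OR2 to H1975 (y axis) for all genes with a ratio in both, shaded by the number of genes per hexagon, with the 7 members that had a ratio as red points and VTCN1, a bound in both lines, as an open triangle, and dashed lines at ratios of 2 and 0.5. NT5E and VTCN1 lay below both lower lines, CD47 below that of OR1 and CD274 below that of OR2.

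Genes around the members were compared by position, over the 20 nearest genes that all 3 arrays called well above background. Among all genes with a ratio, 9.58% were down-regulated and 9.17% up-regulated in OR1, and 8.70% and 7.72% in OR2. Around CD274, within 3.05 Mb, the median ratio was 0.703 in OR1 and 0.765 in OR2, with 4 of the 20 down-regulated in OR1, 2 in OR2 and 0 up-regulated. Around CD47 it was 1.46 in both lines, on the other side of 1 from CD47 itself, and 7 of the 20 were up-regulated in OR1 and 6 in OR2. Around NT5E it was 0.938 and 0.974, and 0 of the 20 passed the ratio in either line. The low NT5E ratios were thus not shared by the genes next to it. Around VTCN1 the medians were 1.13 and 0.960, around LGALS9 0.812 and 0.821, around CD276 0.952 and 0.761, and around PVR 1.15 in both lines.

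Of the 18591 genes called well above background by all 3 arrays, those nearest to each down-regulated member in the pair of log2 ratios were named, whatever their function. For NT5E these were AKR1B15 (0.155 in OR1 and 0.337 in OR2), CYP27A1 (0.161 and 0.337) and BST1 (0.163 and 0.323), at distances of 0.086 to 0.13. For CD47 they were F2RL1 (0.395 and 0.545), lnc-C1orf201-2 and FBXO41, at 0.010 to 0.026. For CD274 they were the unannotated A_33_P3333985 and THC2616237 and IQGAP3 (0.502 and 0.426), at 0.015 to 0.036. For VTCN1, taken at its bound, they were NXPH4, KRT7 and DISP2, at 0.088 to 0.14. With 2 ratios per gene, such likeness says nothing of shared control.

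Other ligands of immune receptors did not all move the same way. Of 13 listed, which were ligands but for the enzyme IDO1, 7 were well above background. Of these, 1 passed the upper ratio and 1 the lower ratio in both lines. Over all genes, 1141 of the 21132 with a ratio in both lines passed the upper ratio in both, and 6.71% the lower. NCR3LG1 (B7-H6), an activating ligand of natural killer cells, read 61.0, 289 and 193 in H1975, OR1 and OR2, ratios of 5.41 and 3.08. CEACAM1, an adhesion molecule that also binds TIM-3, read 127, 29.0 and 58.5, ratios of 0.260 and 0.448, which were 0.515 and 0.602 and short of the call under normexp correction. CD86, a B7 ligand of CD28 and CTLA-4 that was named after its values were seen, was at 2.02 in OR1, a call lost with 4 of the alternatives, and at 1.22 in OR2.

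The nectins are the adhesion molecules to which PVR belongs, and with CADM1 all 5 listed genes were detected on 1 array or more. NECTIN3 (PVRL3 in the files) rose from 21.0 to 174 in OR1 and 371 in OR2, ratios of 9.45 and 17.2, whose lowest values over the alternatives were 3.14 and 5.21. CADM1 rose from 18.3 to 175 in OR1 and 53.0 in OR2, ratios of 10.9 and 2.81, at the lowest 3.22 and 1.45 over the alternatives. NECTIN4 (PVRL4) fell from 663 to 25.2 in OR2, a ratio of 0.037, and to a level not well above background in OR1, a ratio of at most 0.020, at the highest 0.127 and 0.119 over the alternatives. The genes of this family thus did not move in 1 direction. NECTIN2 (PVRL2), which like PVR is a ligand of TIGIT, was at 0.908 in OR1, with 0.597 to 1.07 over the alternatives, and at 1.28 in OR2.

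The adenosine pathway around CD73 had 14 of 16 genes well above background. Of these, 3 were up-regulated in both lines, against 1141 of 21132 genes, and 1 was down-regulated in both, against 6.71%. ADORA1, an adenosine receptor, was at background in H1975, with 5.02, and read 90.9 in OR1 and 100.2 in OR2. These were at least 8.25 and at least 7.76 times higher (at least 2.34 and at least 2.24 with normexp correction). ADORA2A, the adenosine receptor best known from T cells, read 97.6, 436 and 298, ratios of 5.09 and 2.97. DPP4 (CD26), which binds adenosine deaminase at the cell surface, read 126, 313 and 494, ratios of 2.82 and 3.80, the former 1.86 with spike-in scaling. These 3 genes lay in the direction opposite to NT5E. ENTPD3, an ectonucleotidase, read 27.0 in H1975 and was not well above background in OR1 and OR2, at most 0.482 and at most 0.455, calls that were lost with normexp correction. ENTPD1 (CD39), which acts upstream of CD73, was at 1.04 in OR1 and 0.751 in OR2, and ADORA2B at 1.33 and 1.35, the former 0.876 with spike-in scaling. ADK and ENTPD2, named after their values were seen, were down-regulated in OR1 alone, at 0.488 and 0.367, with 0.673 and 0.734 in OR2, and the ADK call was lost under 3 alternatives at up to 0.509 and that of ENTPD2 under normexp at 0.680.

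Of 12 genes linked to CD47, as receptors, partners, modifying enzymes or parallel signals, 11 were well above background on 1 array or more. A ratio was had for 10 of them in OR1 and 11 in OR2. Down-regulated in both lines were 2, and 0 were up-regulated in both. Over all genes with a ratio in both lines, 6.71% were down-regulated in both, and 1141 of 21132 were up-regulated in both. CD24, a separate signal against phagocytosis, read 4407, 1116 and 1943 in H1975, OR1 and OR2, ratios of 0.289 and 0.429. ITGB3, the integrin β3 chain, read 842, 209 and 229, ratios of 0.283 and 0.264. SIRPA, the receptor of CD47, was at 0.960 and 0.954.

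Of 21 listed regulators of PD-L1, 20 were well above background. In both lines 0 were up-regulated, against 1141 of 21132 genes, and 1 was down-regulated, against 6.71%. It was COPS5, a deubiquitinase subunit that acts on PD-L1 protein, at 13155, 4601 and 5466 in H1975, OR1 and OR2, ratios of 0.399 and 0.404. IRF1, which drives PD-L1 transcription, was at 0.728 in OR1 and 0.840 in OR2. JAK2, which lies near CD274 on chromosome 9, was at 0.634 and 1.25. CMTM6, which keeps PD-L1 at the cell surface, was at 0.889 and 1.09. The median log2 ratio of the 20 genes was -0.34 in OR1 and -0.06 in OR2.

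**Figure D4:**
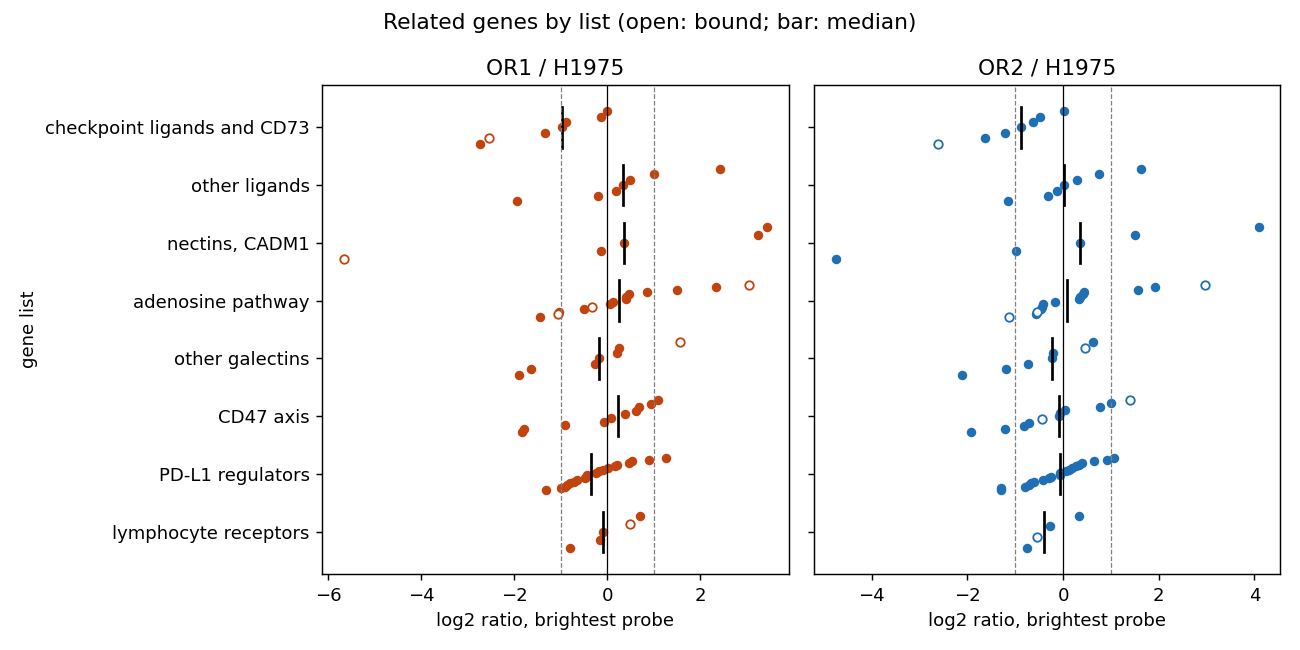
Log2 ratio to H1975 of each gene with a ratio in the 8 lists, OR1 at the left and OR2 at the right, by the brightest probe on 1 array per line, with open circles for bounds, a black bar at each list's median and dashed lines at ratios of 2 and 0.5. The checkpoint ligands and CD73 had no gene above the upper line, and the nectins reached from at most 0.020 to 10.9 in OR1.

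The promoter of CD274 is shown because its motifs for interferon-responsive factors bear on the list above. It is the RefSeq sequence of the 250 bases before the start of the gene on GRCh38.p14 (chr9:5450292-5450541, plus strand), with matches in capitals.
CD274: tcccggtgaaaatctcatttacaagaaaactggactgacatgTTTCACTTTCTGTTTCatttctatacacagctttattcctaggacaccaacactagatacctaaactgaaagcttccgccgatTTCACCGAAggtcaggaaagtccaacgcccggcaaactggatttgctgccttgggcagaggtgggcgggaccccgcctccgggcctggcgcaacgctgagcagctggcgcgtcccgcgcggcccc
The interferon-stimulated response element (GAAA, any 2 bases, GAAA) was matched on the reverse strand by 2 overlapping stretches, which begin 208 and 202 bases before the start, and the gamma-activated site TTCNNNGAA by 1, which begins 125 bases before it. Over both strands, 3.02% of the 35116 promoters of the same length held the former motif and 6.57% the latter. Of the 7 members with a promoter in the table, CD274 was the only one with either. The AP-1 site TGANTCA was in none of them and in 6.57% of all promoters. The hypoxia response core ACGTG was in that of CD47, in 1 of the 2 promoters of CD276 and in 18.5% of all promoters. A match is a run of letters and not a bound site.

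Markers of other cells and of the tissue were read on the same arrays. Of the 9 lung epithelial genes, SFTPB was not well above background and the other 8 were on each array. Down-regulated in both lines were 4, against 6.71% of all genes. They were EPCAM (0.037 in OR1 and 0.073 in OR2), CDH1 (0.020 and 0.080), KRT7 (0.164 and 0.170) and KRT19 (0.463 and 0.492, the latter up to 0.574 and not called under 5 alternatives). Of the other 4, KRT8 was at 1.12 and 0.964, KRT18 at 0.884 and 0.806, NAPSA at 0.770 and 1.57, and NKX2-1 at 0.252 and 1.36, past the ratio in OR1 alone. The list's summed intensity, to which KRT7, KRT18 and KRT19 gave most, was 391417, 148109 and 173415 in H1975, OR1 and OR2. Of 9 immune cell markers found by symbol, CD3E, CD2, MS4A1 and ITGAM were not well above background on any array and PTPRC read 21.0, 20.7 and 20.5, near the lowest level called. CD14 was up-regulated in both lines (4.25 and 6.56) and CSF1R down-regulated (0.249 and 0.375), and the summed intensity of the list ran from 1827 in OR1 to 3254 in H1975. Of 8 fibroblast genes, COL3A1, DCN, PDGFRA and THY1 were not well above background, and COL1A2 was down-regulated in both lines (0.162 and at most 0.061). COL1A1, which made up most of the list's summed intensity of 692, 690.2 and 110.2, was at 1.45 in OR1 and 0.183 in OR2, and LUM was up-regulated in OR1 (at least 5.43). The part of these genes in the ratios of the checkpoint ligands was not tested.

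**Figure D5:**
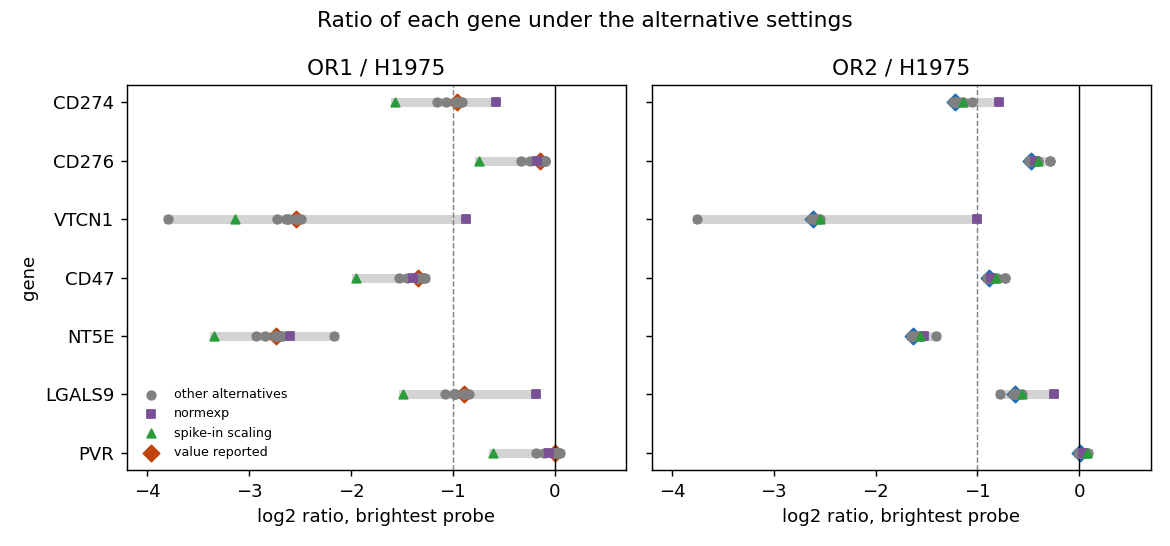
Log2 ratio to H1975 of the 7 members with a ratio, OR1 at the left and OR2 at the right, as reported (diamond) and under the alternative settings of scaling, background, filter and probe choice (other marks), with a grey bar over their range and a dashed line at the ratio of 0.5. NT5E stayed below the line in both panels under each setting, from 0.098 to 0.223 in OR1 and from 0.317 to 0.376 in OR2.

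Scaling shifted the OR1 array as a whole. With the 7 spike-in probes as the scale, all genes of OR1 had a median log2 ratio of -0.59, a shift of -0.63, and the members one of -1.56. Without scaling and with median scaling the shifts were -0.19 and -0.11. In OR2 no scaling moved the median of all genes by more than 0.074. The OR1 ratio of PVR was 1.002 as reported and ran from 0.660 with spike-in scaling to 1.04. It was below 1 under 4 of the 12 alternatives, among them normexp correction at 0.961. What moved it was not tested.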

How the data were processed

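Total RNA of H1975, OR1 and OR2 was labelled with Cy3 and hybridized to an Agilent array for each line, on a shared slide. The authors deposited the output of Agilent Feature Extraction (version 9.5.1.1 in the submitters' processing notes, 10.7.1.1 in the file headers), in which intensity is background-subtracted and detrended within each array and not scaled between arrays, together with flags of 0 or 1 for each spot. A second table deposited by the authors holds normalized intensities of 58200 probes by a method not given in the sources used here. Its median was 9.51 in each line, its scale was linear, and it differed from quantile-normalized scanner values by a median of 0.0013 (log2). It served as an alternative.

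Control spots and outlier spots (45 in H1975, 61 in OR1 and 46 in OR2) were left out, repeated spots were averaged as log2 values, and each array's 75th percentile was subtracted. The scanner software called 45.6% to 45.9% of probes well above background, and no spot was saturated. For 300 probes spotted 10 times on each array, the median SD between spots was 0.055 to 0.056 (log2). Probe names and hg19 positions are those of the files, and promoters are from RefSeq. Whether a probe lies in coding or untranslated sequence was not determined.

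The 3 comparisons (OR1 and OR2 with H1975, and OR1 with OR2) used the methods' ratios of 2 and 0.5, without a test, since each line had 1 array and their number limits the precision. The alternatives were 5 other scalings, normexp with an offset of 50, other filters, probe rules and ratios (4 or 1.5), and limma. The members and the 10 lists beside them were chosen with earlier results of these data known. All members were named, and of the lists every gene past the ratio in both lines in the same direction, with ENTPD1, ADORA2B, SIRPA, NECTIN2, IRF1, JAK2 and CMTM6 in any case, and the 3 genes nearest in the log2 ratios to each down-regulated member. The values of some genes named by this rule are not reported here. The counting was tested on simulated data. Python 3.11.15, numpy 2.4.6, pandas 2.3.3, matplotlib 3.10.9, R 4.3.3 and limma 3.58.1 were used.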

Additional observations from a re-analysis of the deposited data

How the results depend on the processing

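Of 166 member values under the alternatives, 150 moved by less than their technical SD, 16 by more, and 0 of the called values changed direction. Not all of the 150 could have moved. No spot was saturated, so leaving such spots out changed no value. The background filters could not change the ratios of the 6 members well above background on all 3 arrays. The authors' normalized intensities nearly repeat quantile normalization. The 150 are therefore no measure of robustness. The number of members down-regulated in OR1 was 3 as reported, 5 without scaling and 5 with spike-in scaling, and with a ratio of 1.5 it was 5. The number down-regulated in OR2 was 3, 5 with a ratio of 1.5 and 1 with a ratio of 4. The number apart between OR1 and OR2 was 1, 2 with spike-in scaling, 0 with the median over a gene's probes and 0 with a ratio of 4. The median log2 ratio of the members in OR1 was -0.96, with -1.56 under spike-in scaling and -0.57 under normexp. The counts under all other alternatives stayed within 1.5 times those reported, and 0 members were up-regulated under any. Under the other scalings, background correction and probe rule, at the ratios of 2 and 0.5, the calls of NT5E and CD47 did not change. The background filters could not change them, nor the probe rule that of CD47, which has 1 probe. Calls of CD274, VTCN1 and LGALS9 did change under settings given in the report. At a ratio of 4, NT5E in OR2 and CD47 in OR1 were no longer called, and at 1.5 CD47 was also called in OR2. VTCN1 has no value where all 3 arrays must be well above background. For these changes the cause was not tested.

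With OR1 and OR2 taken as 2 resistant samples against the lone H1975 array, which was assumed to vary like them, limma had 1 residual degree of freedom. After Benjamini-Hochberg adjustment over 22418 genes it called 581, and of the 7 members 1, VTCN1 (log2 difference of -3.78, adjusted p = 0.0308), where 2 members had passed the ratio in both lines. That value is no measure of size, since VTCN1 was not well above background in either resistant line and its spread there is that of 2 background readings. The adjusted p of the members ran from 0.0308 to 0.995, with 0.170 for NT5E, 0.209 for CD274 and 0.236 for CD47, and 4 of the 7 had an unadjusted p under 0.05. No paired analysis was possible because each line had a single array. Leaving out an array would leave no comparison with its line. The signal limits LGALS9, PDCD1LG2 and VTCN1, which lay near or below the background of at least 1 array.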

Other observations

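Receptors of lymphocytes, among them some that the checkpoint ligands bind, were also read in these tumor cells. Of 12 listed, 7 were not well above background on any array, as were 20898 of all 43316 gene names. Among the 7 were TIGIT, CD96, CD226, CTLA4 and HAVCR2, the gene of TIM-3. The other 5 had a ratio in OR1 and 4 of them in OR2, and 0 passed the ratio in either line. Over all genes, 9.17% were up-regulated and 9.58% down-regulated in OR1, and 7.72% and 8.70% in OR2. PDCD1, the gene of PD-1, read 26.3, 37.4 and 34.1 in H1975, OR1 and OR2, and LAG3 read 112, 56.4 and 68.3, ratios of 0.575 and 0.594. These receptors were named after their values were seen.

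Among 10 other galectins found by symbol, 7 were detected well above background. The probe named LGALS9C was the only 1 of them that was down-regulated in both lines, against 6.71% of all genes. LGALS3, an abundant galectin named after its values were seen, was at 0.322 in OR1 and 0.599 in OR2, and LGALS1, named likewise, at 1.20 and 0.857.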
